A study of Mus musculus with 2 samples.

Results

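The precursors of miR-199, miR-214, miR-140 and miR-455 were described in ischemic mouse hindlimb muscle. They were picked by name: 6 of the 1187 miRNA precursors (hairpins) in the count tables, listed there as mmu-mir-199a-1, mmu-mir-199a-2, mmu-mir-199b, mmu-mir-214, mmu-mir-140 and mmu-mir-455 and written below as miR-199a-1 and so on. One library came from hypercholesterolemic mice (HC), which carried the ApoE-/- genotype and, per the series' design text, were on a high-fat diet; the labels name no strain for them. The other came from normocholesterolemic C57Bl/6 control mice (NC), for which the labels name no diet. Both had the same surgery, a removal of the femoral artery that makes the limb ischemic, and both were sampled 1 day later, so neither library shows muscle without ischemia. ApoE-/- mice lack apolipoprotein E, which helps clear lipoprotein remnants from blood. Ages are not given in the labels, nor is the number of mice behind a library. With 1 library per group the spread between animals is unknown, no test was run, and each interval is a nominal 95% interval of counting error in these libraries. The HC group combines a genotype with a diet, and the 2 cannot be told apart.

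A miRNA is cut from a hairpin as a short strand, which pairs with messenger RNAs mainly through its seed, bases 2 to 8 from the 5′ end, and lowers their translation and stability. miR-199a-2 and miR-214 are cut from Dnm3os, a noncoding RNA of mesenchymal cells that is required for normal skeletal growth, and both miRNAs are known from fibroblasts and fibrosis. miR-140, hosted by the ubiquitin ligase gene Wwp2, and miR-455, hosted by the fibrillar collagen gene Col27a1, are best known from cartilage, where the transcription factor Sox9 drives miR-140. Bulk muscle holds fibres, connective tissue, vessels and blood cells together, so fewer cells of a type and less RNA per cell cannot be told apart in these values.

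The mature sequences, from RefSeq (GRCm38.p6, the assembly of mm10), show where the hairpins share a strand. The table gave 10 entries for the 6 precursors, and miR-140-5p and miR-199b-5p were not analysed here. Capitals mark the seed.
miR-199a-3p and miR-199b-3p: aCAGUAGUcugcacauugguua
miR-199a-5p: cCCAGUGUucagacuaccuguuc
miR-214-3p: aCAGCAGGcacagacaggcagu
miR-214-5p: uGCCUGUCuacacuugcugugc
miR-140-3p: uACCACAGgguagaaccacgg
miR-455-3p: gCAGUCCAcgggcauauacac
miR-455-5p: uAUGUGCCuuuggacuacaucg
The 3p strand of all 3 miR-199 hairpins is the same sequence of 22 bases, and no other mature miRNA among the 1738 entries searched had its seed. The seed of miR-214-3p equals that of miR-199-3p at 5 of 7 positions and is shared in full with miR-761, which had 2 counts in each library. The seed of miR-140-3p is shared with miR-497b, whose hairpin overlaps miR-497a and had the same counts as it, 1718 in HC and 2384 in NC, so the counts do not separate the 2. The seed of miR-455-5p is shared with miR-5129-3p, whose precursor had 12 counts in HC and 13 in NC. The seeds of miR-199a-5p, miR-214-5p and miR-455-3p had no match outside the 6 precursors among these entries.

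The hairpins of miR-199 are printed to show how far the copies resemble each other. Capitals mark the shared 3p strand.
miR-199a-1: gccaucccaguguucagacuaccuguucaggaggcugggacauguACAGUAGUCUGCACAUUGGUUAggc
miR-199a-2: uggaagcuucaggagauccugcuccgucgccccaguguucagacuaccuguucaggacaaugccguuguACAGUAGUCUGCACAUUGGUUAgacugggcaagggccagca
miR-199b: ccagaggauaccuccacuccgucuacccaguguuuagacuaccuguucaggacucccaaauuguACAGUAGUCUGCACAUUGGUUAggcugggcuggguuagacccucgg
Both miR-199a hairpins also hold the 23 bases of miR-199a-5p without a mismatch, and the closest stretch of the miR-199b hairpin differs from them at 1 base. Over the aligned parts the hairpins were 84.1% (miR-199a-1 and miR-199a-2), 88.2% (miR-199a-1 and miR-199b) and 86.7% (miR-199a-2 and miR-199b) identical.

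The 3 miR-199 genes lie on the strand opposite to dynamin genes, which encode GTPases of membrane fission. In mm10 coordinates with GENCODE M21 annotation, miR-199a-1 (chromosome 9, 21496495 to 21496564, minus strand) lies opposite an intron of Dnm2, and miR-199b (chromosome 2, 32318460 to 32318569, plus strand) opposite an intron of Dnm1. miR-199a-2 (chromosome 1, 162217814 to 162217923, plus strand) and miR-214 (chromosome 1, 162223368 to 162223477, plus strand) lie opposite an intron of Dnm3 and inside an exon of Dnm3os, with 5444 bases between them. miR-140 (chromosome 8, 107551244 to 107551313, plus strand) lies within Wwp2, in a stretch that is an exon of an annotated Wwp2 transcript with a retained intron and of no other Wwp2 transcript. miR-455 (chromosome 4, 63256851 to 63256932, plus strand) lies in an intron of Col27a1. Within 10 kb of the 6 precursors the tables list 1 further one, miR-3154 beside miR-199b, with 0 counts in both libraries. Whether counting used the strand was not given in the sources used here. Without it, reads of a gene and of its antisense partner cannot be told apart.

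The HC library held 31198050 counts over all precursors and the NC library 43848576. Copies and overlapping hairpins with shared reads are listed separately, so these totals need not be numbers of separate reads. Levels are given as CPM, the counts divided by the library size and multiplied by 1e6, with library sizes scaled by the trimmed mean of M-values (TMM). The muscle miRNAs miR-1, miR-133 and miR-206, as 6 precursors that include copies with shared reads, summed to 136143 CPM in HC and 135986 CPM in NC, so that the tissue's own markers were abundant in both. The sum was mostly miR-133a, at a log2 fold of HC over NC of -0.01, while the miR-1a precursors were at 0.47, miR-133b at -0.20 and miR-206 at -0.09. Among other cell types, the 7 epithelial precursors summed to 139.5 CPM in HC and 187.8 CPM in NC, the lymphocyte miRNA miR-150 had 141.6 and 237.6 CPM, and the 2 erythrocyte precursors summed to 608.8 and 467.9 CPM. Of the myeloid pair, miR-142a had 1784 CPM in HC and 1771 in NC, and miR-223 had 340.3 and 250.9 CPM, a log2 fold of 0.44 (0.40 to 0.48). The smooth muscle pair summed to 69344 and 76571 CPM, and the endothelial miR-126a had 11407 and 11144 CPM. The part of these differences in the values below was not tested.

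miR-199 was the most abundant of the 4 miRNAs in both libraries. miR-199a-2 had 79452 counts in HC and 92792 in NC, which is 2431 CPM (2414 to 2448) and 2217 CPM (2203 to 2231). miR-199a-1 had 78965 and 92219 counts, or 2416 and 2203 CPM. miR-199b had 73666 and 86031 counts, or 2254 and 2055 CPM. The HC values were the higher ones for all 3, and their counting intervals did not overlap those of NC. Each precursor held about the same share of the counts over all precursors, 0.236% to 0.255% in HC and 0.196% to 0.212% in NC.

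The 3 miR-199 hairpins behaved as 1 quantity in these tables. miR-199a-1 stood at 99.4% of the count of miR-199a-2 in HC and at 99.4% in NC, and miR-199b stood at 92.7% in both. The gap between the highest and the lowest hairpin was 5786 counts in HC (7.28% of the highest) and 6761 in NC (7.29%). The tables list 0 counts as ambiguous or not unique, so where a read fits all copies it was not set apart in those classes. Separate levels of the 3 genes, and the part of each in the difference between libraries, are therefore not given by these counts.

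miR-140 was next, with 14136 counts in HC and 17334 in NC. This is 432.5 CPM (425.4 to 439.7) in HC and 414.1 CPM (408.0 to 420.3) in NC, 2 levels whose counting intervals lay apart by a small margin. miR-214 had 1514 counts in HC and 1946 in NC, or 46.3 CPM (44.0 to 48.7) and 46.5 CPM (44.4 to 48.6), which overlap almost fully. miR-455 was the scarcest, with 292 counts in HC and 429 in NC, or 8.93 CPM (7.94 to 10.02) and 10.2 CPM (9.30 to 11.3), and its intervals overlapped in part.

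**Figure D1:**
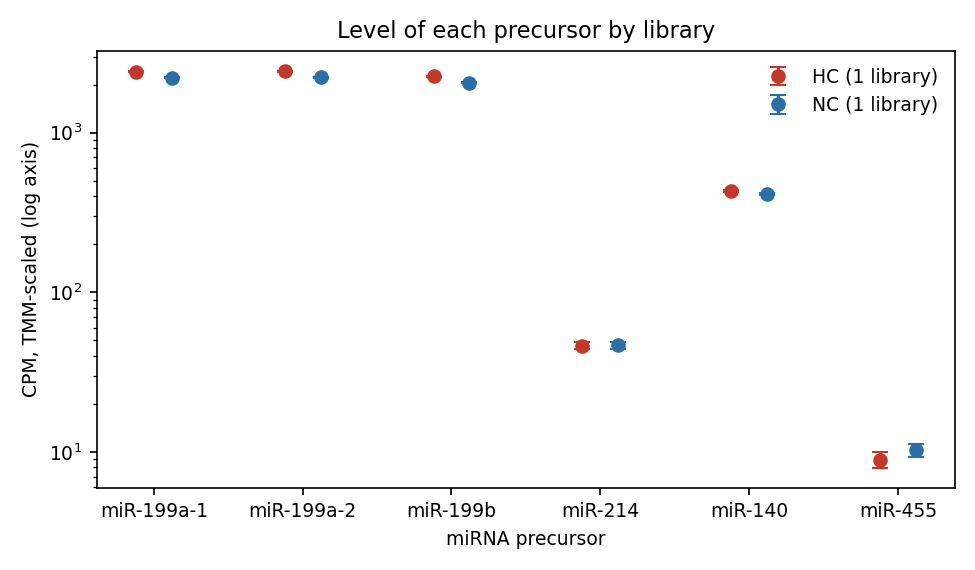
Level of the 6 precursors in the HC and NC libraries, in TMM-scaled CPM on a log axis, 1 point per library with its exact 95% Poisson interval (counting error only). The levels fall from miR-199 (2055 to 2431 CPM) over miR-140 and miR-214 to miR-455 (8.93 and 10.2 CPM), in the same order in both libraries.

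In the plot of levels by library the order was miR-199a-2, miR-199a-1, miR-199b, miR-140, miR-214 and miR-455 in both HC and NC. miR-199a-2 and miR-199a-1 had overlapping counting intervals in each library, and that of miR-199b lay apart from both. These copies share reads, so separate intervals do not give the error of the steps among them. Each step from miR-199b downward exceeded its counting error. miR-199b had 5.21 times the counts of miR-140 in HC and 4.96 times in NC, miR-140 had 9.34 and 8.91 times those of miR-214, and miR-214 had 5.18 and 4.54 times those of miR-455. These are counts per hairpin, in which a read stands for about 1 mature strand whatever the hairpin's length. Per 100 hairpin bases the sequence from miR-199 to miR-140, miR-214 and miR-455 was the same (2049 to 3452, then 617.9, 42.1 and 10.9 CPM per 100 bases in HC), but the shorter miR-199a-1 came before miR-199a-2. Among all 1187 precursors, the miR-199 hairpins ranked 37 to 39 in HC and 38 to 41 in NC, miR-140 ranked 84 and 85, miR-214 ranked 158 and 157, and miR-455 ranked 230 and 220.

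miR-199a-2 and miR-214 differed widely in count although they share Dnm3os. The count of miR-214 was 1.91% of that of miR-199a-2 in HC and 2.10% in NC, a gap of 52.5-fold and 47.7-fold. Reads of the other miR-199 copies are part of this gap. If 1 in 3 of the reads listed for miR-199a-2 were its own, the gap would be 17.5-fold in HC and 15.9-fold in NC. The 2 hairpins have the same length, 110 bases, so the comparison is the same per length.

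**Figure D2:**
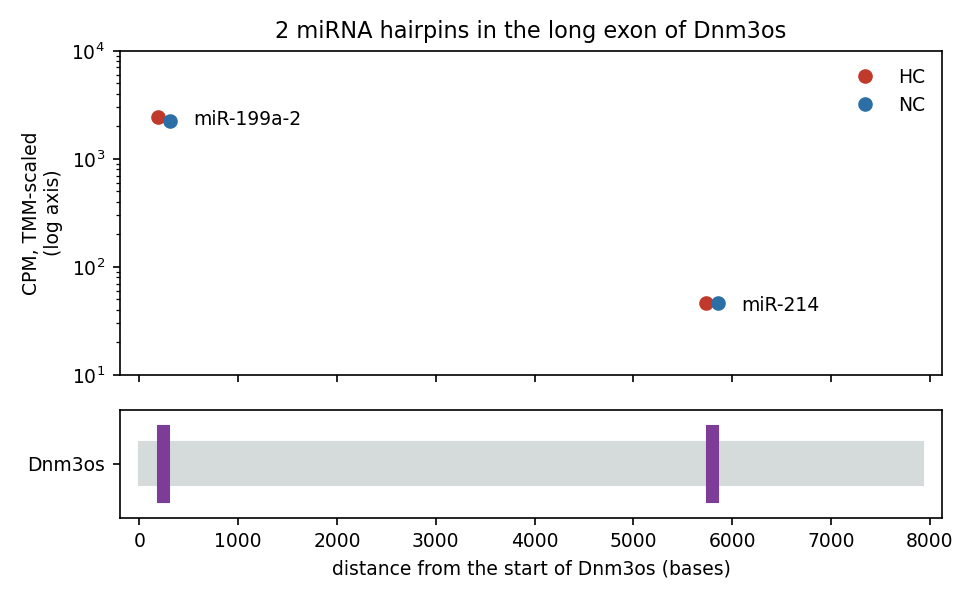
Upper panel: CPM (TMM-scaled, log axis) of miR-199a-2 and miR-214 in the HC and NC libraries, 1 point each, set side by side around the hairpin's place. Lower panel: the 7928 bases of Dnm3os drawn to scale by distance from its start, with the 2 hairpins as bars; miR-199a-2 lies near the start and miR-214 is 5444 bases further on, at a level 52.5-fold (HC) and 47.7-fold (NC) lower.

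The map of Dnm3os shows the hairpin with more counts near the start of the transcript, 191 bases from it, and miR-214 at 5745 bases. In the listed counts the distance between the libraries was small beside the distance between the hairpins.

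Between the libraries the miR-199 hairpins were slightly higher in HC, by a log2 fold of HC over NC of 0.13 (0.12 to 0.15) for each, which is 1.10-fold (1.09 to 1.11). miR-140 was 1.04-fold higher (1.02 to 1.07), a log2 fold of 0.06 (0.03 to 0.10). miR-214 had a log2 fold of -0.01 (-0.10 to 0.09), so that no difference could be seen at its depth. miR-455 had -0.20 (-0.42 to 0.02), an interval that runs from 0.749-fold to 1.01-fold and includes equality.

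None of the 6 precursors reached 2-fold, or 1.5-fold. Of all 222 precursors that averaged 10 CPM or more, 5 (2.25%) were at least 2-fold apart with an interval excluding equality, and 16 (7.21%) at least 1.5-fold. Of the 6 precursors, 5 passed the minimum of 10 CPM, and miR-455 lay just below it with a mean of 9.59 CPM. The counting interval lay above equality for 4 of the 5, which are miR-140 and the 3 inseparable miR-199 hairpins, against 39.6% of the 222. It lay below equality for 0 of the 5, against 43.7% of the 222. Counted once, miR-199 leaves 2 of 3 above. The median log2 fold of the 6 was 0.10, or 0.03 with 1 miR-199 hairpin, and that of the 222 was 0.00.

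**Figure D3:**
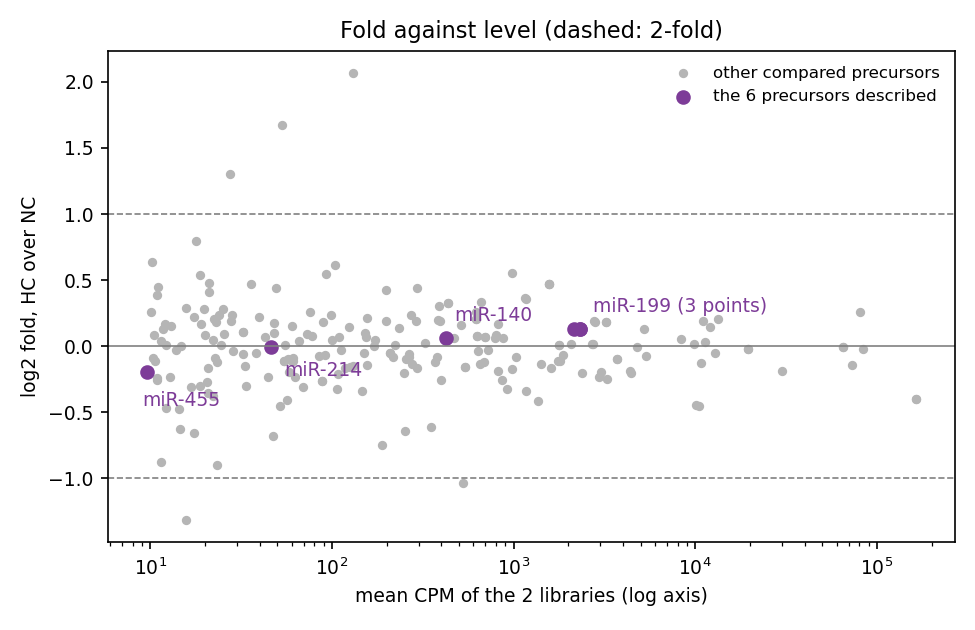
Log2 fold of HC over NC against the mean CPM of the 2 libraries (log axis), 1 point per precursor, for the other precursors that averaged 10 CPM or more (grey) and the 6 described here (purple). Dashed lines mark 2-fold; the 6 lie between -0.20 and 0.13, inside the bulk of the grey points.

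In the plot of fold against level the 6 precursors lay among the others. Of the 222 precursors, 153 to 155 had a lower log2 fold than the miR-199 hairpins (percentiles 68.9 to 69.8), 131 a lower one than miR-140 (percentile 59.0), 109 a lower one than miR-214 (49.1) and 47 a lower one than miR-455 (21.2). Within this fixed set of 222 another scaling shifts all folds by the same amount and leaves these places as they are. By size alone, 131 to 133 of the 222 had a larger absolute fold than the miR-199 hairpins and 218 a larger one than miR-214.

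The precursors nearest in log2 fold, by absolute difference over 2 libraries, were miR-146a (0.14) and miR-350 (0.13) for miR-199a-2 and the muscle-specific miR-133a-1 and miR-133a-2 (-0.01 each) for miR-214. They were miR-29a and miR-186 (both 0.06) for miR-140 and miR-151 and miR-203 (both -0.20) for miR-455. With 2 libraries this measure places precursors on 1 axis only, and precursors of any cell type can meet there.

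The direction of the smaller folds depended on the library scaling. Against TMM, plain totals shifted every log2 fold by 0.13 and the authors' own denominators by -0.11. The miR-199 hairpins stayed above equality in all 5 scalings, between 0.02 and 0.27. miR-140 was above equality in 4 scalings and below it with the authors' denominators, at -0.05 (-0.08 to -0.02). miR-214 was above with plain totals (0.13), below with the authors' denominators (-0.12) and held equality in the other 3. miR-455 was below 0 in all 5, from -0.31 to -0.06, but its interval excluded equality only with the authors' denominators, at -0.31 (-0.53 to -0.09).

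**Figure D4:**
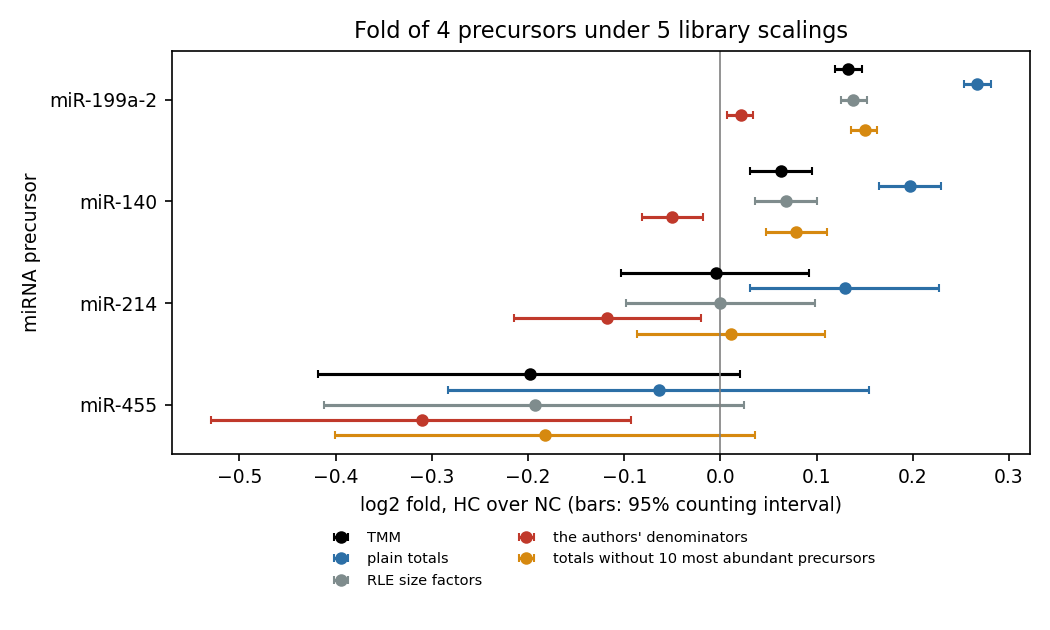
Log2 fold of HC over NC for miR-199a-2, miR-140, miR-214 and miR-455 under 5 library scalings (colours), each with its 95% counting interval. miR-199a-2 stays right of 0 in all 5 (0.02 to 0.27) and miR-455 left of it (-0.31 to -0.06), while miR-140 and miR-214 cross it.

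The plot of folds by scaling also shows how depth set the precision, since the intervals widen from miR-199a-2 to miR-455 as the counts fall. A comparison that needs no scaling is the ratio of 2 precursors within a library, set between the libraries. In all, 11 such pairs were computed, 5 of them chosen after the values were seen.

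Within Dnm3os, miR-214 relative to miR-199a-2 was lower in HC, at 0.909 times its value in NC (0.848 to 0.973). Reads of the other 2 miR-199 loci enter the denominator, so this ratio is not one of Dnm3os products alone. Of the cartilage miRNAs, miR-455 was 2.07% of miR-140 in HC and 2.48% in NC, 0.835 times as much (0.716 to 0.972). miR-140 relative to miR-214 was 1.05 times as high in HC (0.976 to 1.13), an interval that includes equality.

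Of the pairs added later, miR-140 relative to miR-199a-2 was 0.952 times as high in HC (0.930 to 0.976) and miR-455 relative to miR-199a-2 was 0.795 times as high (0.683 to 0.925). miR-455 relative to miR-214 was 0.875 times as high (0.740 to 1.03). Thus the ratio to miR-199a-2 was lower in HC for each of the other 3 miRNAs, beyond counting error. This side follows from the folds above, where miR-199a-2 had the highest log2 fold (0.13), so it adds no further result. The denominator is the same in the 3 ratios, so they are not separate observations.

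**Figure D5:**
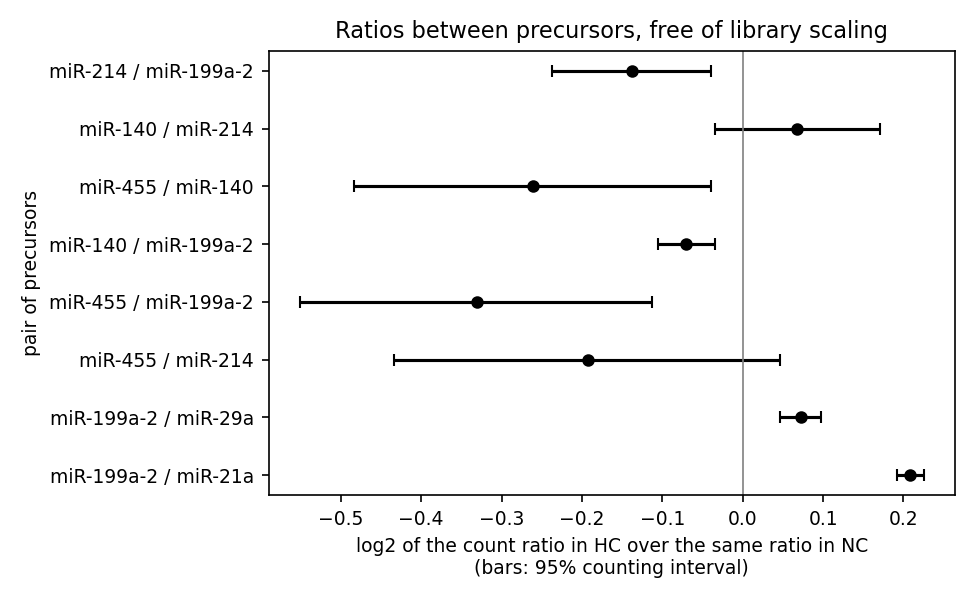
Log2 of the count ratio of 2 precursors in HC over the same ratio in NC, with the exact conditional 95% interval (counting error only), for 8 pairs. Of these pairs, 5 were chosen after the values were seen. The ratios of miR-214, miR-140 and miR-455 to miR-199a-2 lie left of 0, and those of miR-199a-2 to miR-29a and to miR-21a lie right of it. miR-199a-2 had a higher log2 fold than each of these partners, which fixes the sides. Members of the fibrosis and matrix list with higher folds than miR-199a-2, such as miR-22, are not drawn.

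Among the miR-199 hairpins the same ratios were 1.00 for all 3 pairs, for example 1.00 (0.986 to 1.01) for miR-199b to miR-199a-2, an interval that treats shared reads as if they were separate. The plot of ratios also sets miR-199a-2 against 2 miRNAs of the fibrosis and matrix list below, and both pairs were added later. Relative to miR-29a, which represses collagen messages, it was 1.05 times as high in HC (1.03 to 1.07). Relative to miR-21a, which is induced in injured and inflamed tissue, it was 1.16 times as high (1.14 to 1.17). Other compared members of that list, miR-29b-1 (0.24), miR-29b-2 (0.19), miR-29c (0.19), miR-132 (0.19) and miR-22 (0.26), had higher log2 folds than miR-199a-2 (0.13). The miR-30c-1 and miR-30c-2 precursors (-0.11 each) had lower ones. The side of 1 on which such a ratio falls thus depends on the partner chosen.

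Of 10 precursors listed for fibrosis and matrix, 9 were compared, with intervals above equality for 6 and below it for 3. That split was 9 and 0 with plain totals and 2 and 4 with the authors' denominators. None was 1.5-fold apart with TMM. Their median log2 fold was 0.19. The 2 most abundant were miR-22, at 87569 CPM in HC and 73071 CPM in NC (0.26), and miR-21a, at 5210 and 5489 CPM (-0.08). The 4 miR-29 precursors lay above equality with TMM, with miR-29a at 0.06, miR-29c at 0.19 and a median of 0.19, although miR-29a turned to -0.05 (-0.07 to -0.03) with the authors' denominators. In TMM scaling the 0.13 of miR-199 fell within their range of 0.06 to 0.24.

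Of 10 precursors listed for cartilage and chondrocytes, 9 were compared, with intervals above equality for 4 and below it for 4. That split was 7 and 0 with plain totals and 2 and 4 with the authors' denominators. None of the 9 was 1.5-fold apart with TMM. The precursor not compared, miR-675, lay below the minimum of 10 CPM, with 22 counts in HC and 56 in NC. Its log2 fold was -0.99 (-1.77 to -0.26), past 1.5-fold. The median was 0.07 and turned to -0.04 with the authors' denominators. The 2 most abundant were miR-27b, at 12665 and 13143 CPM (-0.05), and miR-181a-2, at 12623 and 11399 CPM (0.15). The smooth muscle pair lay below equality with TMM, with miR-143 at -0.14 (-0.15 to -0.14) and miR-145a at -0.06 (-0.10 to -0.02). With plain totals miR-145a turned to 0.07, above equality as miR-199 was, and miR-143 lay at -0.01.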

How the data were processed

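Small RNA of 2 libraries, HC and NC, was isolated by Trizol with a mirVana kit and prepared with the Illumina TruSeq small RNA kit, per the labels' protocols. Build mm10, HTSeq 0.5.4, TopHat2 2.0.10 and CASAVA 1.8.2 appear in the submitters' processing notes; trimming and the treatment of multiple alignments were not given in the sources used here. Deposited files hold read counts per precursor, both arms summed, and 5 summary rows, which were left out. Counts outside all precursors were 55.9% of listed counts in HC and 44.1% in NC. A deposited signal column, called RPM per the file headers, is a constant multiple of the count (denominators 27222821 in HC and 32252170 in NC) and served as an alternative scaling. Both denominators are smaller than the precursor totals, so the column sums to 1146026 in HC and 1359554 in NC, above 1e6. What the denominators count is not known here.

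Library sizes were scaled by TMM with edgeR 4.0.16 (R 4.3.3), with no edgeR test. Folds carry exact conditional Clopper-Pearson intervals, CPM values exact Poisson intervals, and ratios exact conditional intervals (SciPy 1.17.1). The reads carry no molecular identifiers and can be copies of 1 molecule; intervals therefore cover counting error only. Comparisons across precursors used a mean of at least 10 CPM. The interval procedures were run on simulated Poisson counts, the model that the intervals assume. The simulation held no shared reads, copied reads or spread between animals, so it does not test the intervals against these. Groups came from the phenotype labels. Alternatives were 4 other scalings, 2 other filters, a 1.5-fold limit and 1 precursor for the miR-199 copies. Named were the 6 precursors, neighbours within 10 kb, the 2 nearest in fold, precursors sharing a seed, and the 2 most abundant of each list where no compared member passed 1.5-fold. The precursors and lists were chosen with earlier results of these data known.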

Additional observations from a re-analysis of the deposited data

Results flagged for a closer look

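Counts outside all precursors took no part in the comparisons and made up 55.9% of listed counts in HC against 44.1% in NC. The cause of this difference was not tested.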

How the results depend on the processing

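No paired analysis was possible because each group held 1 library, and for the same reason no replicate could be left out. None of the 6 precursors reached 2-fold under any of the 4 other scalings or 2 other filters, nor 1.5-fold with TMM. The log2 fold of each miR-199 hairpin (0.13) was 0.27 with plain totals, 0.021 when the authors' denominators were used and 0.15 with the 10 most abundant precursors out of the totals. With plain totals miR-214 was 0.13 and miR-140 was 0.20. With the authors' denominators miR-214 was -0.12 and miR-140 turned to -0.05. The median of the 6 (0.10) was 0.23 with plain totals, 0.10 with RLE size factors, 0.11 without the 10 most abundant, 0.029 with 1 miR-199 precursor and turned to -0.014 with the authors' denominators. Apart from the value with 1 miR-199 precursor, which has fewer members, these shifts follow from the scaling, as it moves every fold by the same amount. All other alternative folds of the 6 precursors, among them those of miR-455 and those with RLE size factors, stayed within the counting interval of the TMM value. Among all precursors with counts in both libraries, the fold of miR-199a-2 stood at percentile 60.8 (68.9 with the minimum of 10 CPM) and that of miR-455 at 34.1 (21.2). Of the 222 compared precursors, 5 (2.25%) were at least 2-fold apart and 16 (7.21%) passed 1.5-fold. The count at 2-fold was 10 without the 10 most abundant in the totals, 13 with the minimum at 1 CPM and 35 without one. A lower minimum or none compares more precursors, so 13 and 35 are not out of the same 222. Leaving out the 10 most abundant shifts every log2 fold by 0.017 and also raises every CPM against the minimum of 10. Depth limits miR-455 most: its 292 and 429 counts leave an interval of -0.42 to 0.02.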
